A study of Homo sapiens with 5 samples.

Results

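Regions where Rb was called in both abemaciclib libraries but in only 1 of the 2 DMSO libraries formed an intermediate class of 1338 regions, 9.03% of the 14810 merged Rb regions on chromosomes 1 to 22 and X. They are described here beside 1067 regions with a peak in all 4 Rb libraries (shared regions) and 8607 called in the abemaciclib libraries alone, again in both replicates (gained regions). Membership was chosen from the measured peak calls, so peak numbers, heights, widths and ranks are given as descriptions without a test. The cells were parental ZR-75-1, an established oestrogen receptor-positive breast cancer line, given DMSO or abemaciclib, a CDK4/6 inhibitor, at 500 nM for 4 days. Rb was mapped by CUT&RUN, an assay that tethers a nuclease to antibody-bound sites in native chromatin and sequences the DNA it cuts out. There were 2 Rb libraries per treatment, described by the study as separate cultures, and a negative control with IgG2a antibody in DMSO-treated cells (1 library). All results come from 1 cell line and 1 Rb antibody.

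Rb is the product of the RB1 tumour suppressor gene. It binds E2F transcription factors and their DP partners and represses promoters needed for S phase, and cyclin D with CDK4 or CDK6 phosphorylates Rb and releases it. CDK4/6 inhibitors keep Rb in its active, hypophosphorylated form. Cell cycle promoters often carry E2F sites, CCAAT boxes bound by NFY, or the cell cycle genes homology region (CHR) bound by the MuvB complex.

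The sequences below show what lay under single DMSO peaks. They are the 101 bases around the DMSO summit on the plus strand of GRCh38, printed for CCND1 and for some of the members with the best DMSO ranks that held a match to an E2F or CCAAT pattern, so the presence of a match in the latter was part of the choice. Capitals mark the matches on either strand, with TTCCCGC or TTCGCGC or TTGCCGC or TTGGCGC for E2F and CCAAT for NFY. The first 3 had their peak in DMSO replicate 1 and the last 2 in DMSO replicate 2.
CCND1 (chr11:69639255-69639355): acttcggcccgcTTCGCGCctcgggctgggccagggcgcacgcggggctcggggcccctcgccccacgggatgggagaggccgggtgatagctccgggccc
CEP55 (chr10:93496409-93496509): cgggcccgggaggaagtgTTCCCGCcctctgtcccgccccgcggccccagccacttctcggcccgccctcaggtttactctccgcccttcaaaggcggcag
GORAB (chr1:170532116-170532216): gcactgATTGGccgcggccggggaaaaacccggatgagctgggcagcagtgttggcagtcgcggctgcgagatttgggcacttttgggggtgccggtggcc
MRPL24 (chr1:156741252-156741352): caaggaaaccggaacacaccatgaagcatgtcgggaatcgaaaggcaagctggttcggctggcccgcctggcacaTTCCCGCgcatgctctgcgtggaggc
TLCD3B (chr16:30053051-30053151): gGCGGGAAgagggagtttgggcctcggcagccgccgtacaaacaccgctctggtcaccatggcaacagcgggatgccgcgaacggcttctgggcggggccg

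The single DMSO peaks were low. The height of a peak was the number of fragments stacked at its summit, a whole number recovered from the fold enrichment and the p-value in the authors' lists. In the 248 regions with a peak in DMSO replicate 1, the height had a median of 9 fragments, an interquartile range of 7 to 10 and a maximum of 23. In the 1090 regions with a peak in DMSO replicate 2, the median was 10, the interquartile range 8 to 12 and the maximum 31. Both lists had 6 fragments as their lowest called height on these chromosomes. At most 8 fragments were stacked in 115 of the 248 regions (46.4%) and in 362 of the 1090 (33.2%). In shared regions the medians were 12 and 14 fragments in DMSO replicates 1 and 2.

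**Figure D1:**
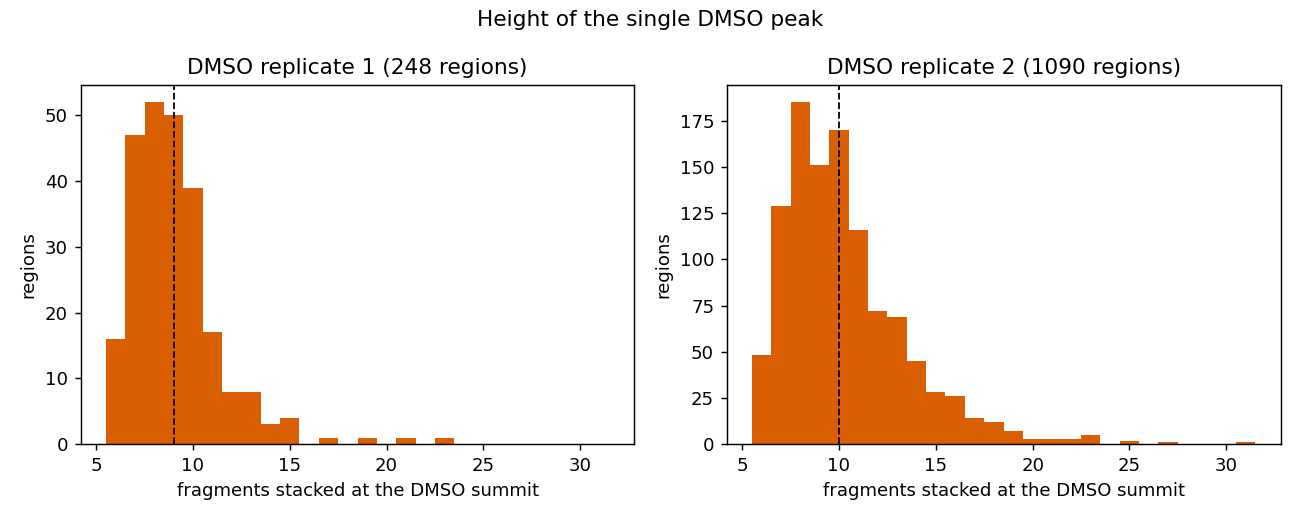
Number of fragments stacked at the summit of the single DMSO peak (x axis) against the number of regions (y axis), for the 248 regions with a peak in DMSO replicate 1 and the 1090 with a peak in DMSO replicate 2. Dashed lines are the medians of 9 and 10 fragments, and the bars start at 6 fragments, the lowest called height of both lists.

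The members were unevenly divided between the DMSO libraries, as were the peaks themselves. DMSO replicate 1 had 1438 peaks and DMSO replicate 2 had 2582, against 13960 and 12234 in abemaciclib replicates 1 and 2. Of the 1340 merged regions with a peak in DMSO replicate 1, 18.5% were members and 79.6% were shared. Of the 2335 with a peak in DMSO replicate 2, 46.7% were members and 45.7% were shared. The lowest local background in a list was 0.649 and 0.677 fragments in DMSO and 0.656 and 0.521 in abemaciclib, for replicates 1 and 2 in turn. The part of sequencing depth in the missing DMSO peaks was not tested.

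After CDK4/6 inhibition the same regions carried tall, broad peaks. The median height over the 1338 members was 54 fragments in abemaciclib replicate 1 (interquartile range 40 to 71) and 40 in replicate 2 (29 to 53). The corresponding medians were 102 and 78 in shared regions and 21 and 16 in gained regions. The height in abemaciclib replicate 1 was a median of 6.24 times that of the DMSO peak for members with a DMSO replicate 1 peak and 5.43 times for those with a DMSO replicate 2 peak. For abemaciclib replicate 2 these ratios were 4.75 and 4.00. Both abemaciclib heights exceeded the DMSO height in 1330 of 1338 members (99.4%), beside 99.6% of the 2405 regions that had peaks in both abemaciclib libraries and in either or both DMSO libraries. The ratios are not scaled for library size.

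**Figure D2:**
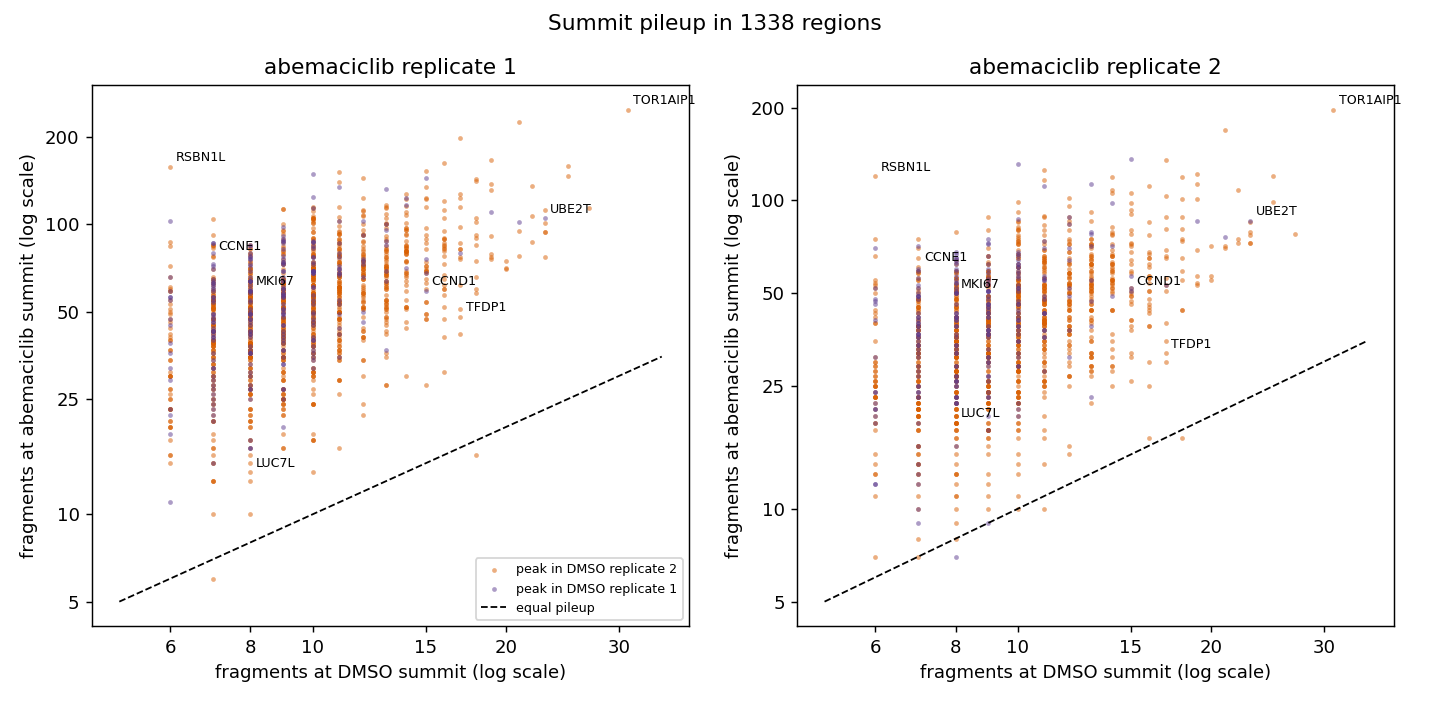
Fragments stacked at the DMSO summit (x axis, log scale) against fragments at the abemaciclib summit (y axis, log scale) for each of 1338 regions, by abemaciclib replicate, with colour giving the DMSO library that held the peak. Nearly all points lie above the dashed line of equal height, from 31 against 249 fragments at TOR1AIP1 to 8 against 14 at LUC7L in abemaciclib replicate 1.

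Heights in the abemaciclib replicates ranked the members alike, with a Spearman correlation of 0.90 over 1338 regions. DMSO and abemaciclib heights were less closely related. The correlation between the DMSO peak and abemaciclib replicate 1 was 0.45 over 248 regions for DMSO replicate 1 and 0.53 over 1090 regions for DMSO replicate 2. These are correlations across regions of the same libraries, which are not independent replicates. Member heights spanned 6 to 23 and 6 to 31 fragments in DMSO replicates 1 and 2. With abemaciclib they spanned 6 to 249 and 7 to 197. The part of the narrower DMSO range in the lower correlations was not tested. Peaks were also wider with abemaciclib, with median widths of 1169 and 1097 bp in replicates 1 and 2 against 209.5 and 213 bp for the DMSO peaks. The DMSO summit lay close to the abemaciclib replicate 1 summit, at a median distance of 74 bp for DMSO replicate 1 and 70 bp for DMSO replicate 2. The summits of the abemaciclib replicates were a median of 48 bp apart.

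Ranked by p-value within an abemaciclib list, members sat just behind the shared regions. Their median position was the top 15.3% of the abemaciclib replicate 1 list, against 4.32% for shared and 48.1% for gained regions. In decile 1 of that list, the strongest, 26.6% of regions were members and 62.4% were shared. In decile 2, 37.9% were members, 11.6% were shared and 50.5% were gained. Members made up 17% of decile 3 and 3.62% of decile 5. Abemaciclib replicate 2 gave 24.4%, 39.8%, 22.1% and 4.89% at the same positions. In both lists decile 2 held the largest share of members. Because ranks come from the calls that chose the members, this order is a description of the class.

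**Figure D3:**
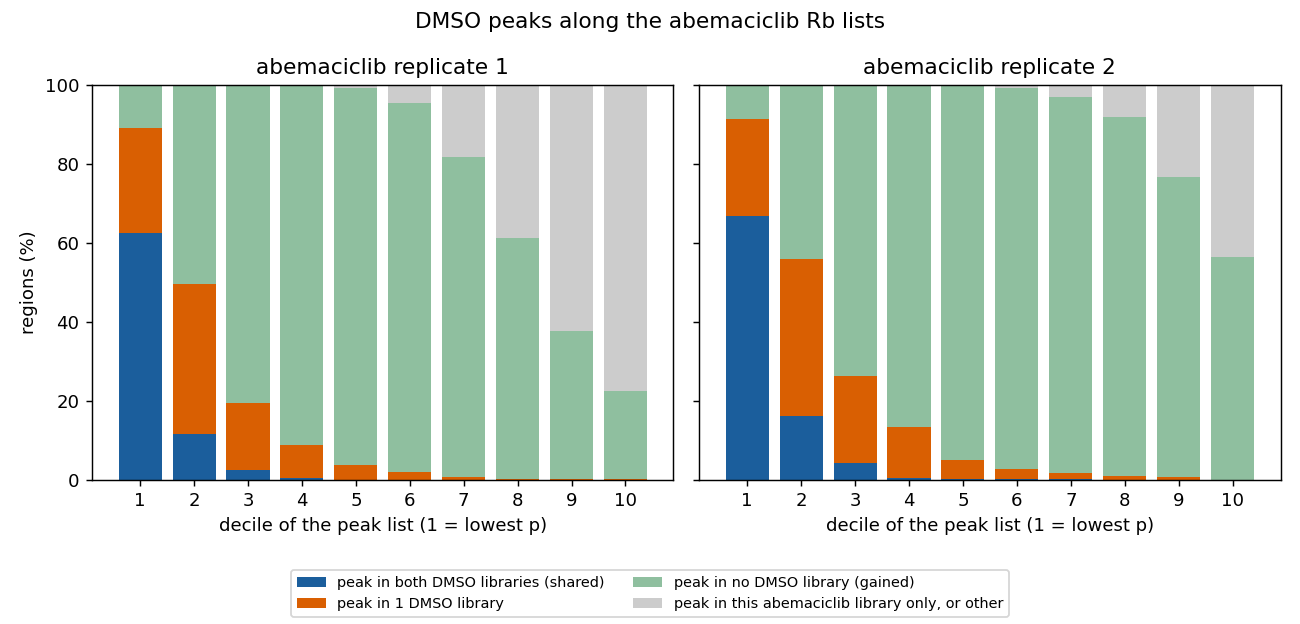
Share of merged regions (y axis, %) by their DMSO peaks, in deciles of each abemaciclib list by p-value (x axis, decile 1 strongest). Regions with a peak in 1 DMSO library are 26.6% of decile 1 and 37.9% of decile 2 in abemaciclib replicate 1, and 24.4% and 39.8% in replicate 2, while gained regions outnumber them from decile 2 on in both lists.

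Some members and some shared regions owed their class to a DMSO peak near the q-value threshold. The members with the least significant DMSO replicate 2 peak included LUC7L, ELAC2 and SEPHS1 and, with the same values, CDKN2B and EHMT2, each with 8 fragments and a −log10 q of 1.31. The shared regions with the least significant second peak included CLN6 and CNOT2, which had the same 8 fragments and −log10 q of 1.31 in DMSO replicate 2 and differed by also having a DMSO replicate 1 peak of 14 and 10 fragments. In DMSO replicate 1, the lowest −log10 q among members was 1.36 at KALRN, with 6 fragments, followed by 1.38 at DENND4C, with 8. At a q-value of at most 1e-05 only 33 of 248 members (13.3%) kept their DMSO replicate 1 peak and 322 of 1090 (29.5%) their DMSO replicate 2 peak.

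The promoter members with the best abemaciclib ranks were at TOR1AIP1, ARPC5, RSBN1L, ATF7IP and NUAK2. TOR1AIP1, which encodes a protein of the inner nuclear membrane, had 31 fragments in DMSO replicate 2 and 249 and 197 in abemaciclib replicates 1 and 2. The region at ARPC5, a subunit of the Arp2/3 actin complex, and the neighbouring RGL1 had 21, 225 and 169. The local DMSO background was high at both, 4.91 fragments at TOR1AIP1 and 4.21 at ARPC5. Their DMSO fold enrichments were 5.41 and 4.22, beside a median of 5.31 for members with a DMSO replicate 2 peak. In abemaciclib replicate 1 the fold enrichments were 41.8 and 50.4, beside a class median of 27.8. RSBN1L had only 6 fragments in DMSO replicate 2 and 158 and 120 with abemaciclib. This was the lowest DMSO height of the class beside one of its tallest abemaciclib peaks. ATF7IP, a partner of the histone methyltransferase SETDB1, had 10 fragments in DMSO replicate 1 and 149 and 131 with abemaciclib. NUAK2, an AMPK-related kinase, had 17 in DMSO replicate 2 and 198 and 135 with abemaciclib.

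The promoter members with the best DMSO ranks included CEP55, UBE2T and RBBP4 in replicate 1 and DMAC2, CASP2 and DBF4 in replicate 2. CEP55, which acts in abscission at the end of cytokinesis, had 21 fragments in DMSO replicate 1 and 102 and 76 with abemaciclib. UBE2T, the ubiquitin-conjugating enzyme of the Fanconi anaemia pathway, had 23, 105 and 86. RBBP4, a histone chaperone that also belongs to MuvB, had 13, 69 and 47. By the rule, none of these had a peak in the other DMSO library. In DMSO replicate 2 the best ranked were DMAC2, with 23 fragments and then 112 and 77 with abemaciclib, and CASP2, an initiator caspase, with 22, 107 and 73. They were followed by DBF4, the regulatory subunit of the CDC7 kinase that fires replication origins, which shares its promoter region with SLC25A40 and had 21, 95 and 71.

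The class was made up almost wholly of CpG-rich promoters. Promoters were taken as 2000 bp upstream to 500 bp downstream of any annotated transcript start in GENCODE 44. Of 1338 members, 1237 overlapped a promoter of a protein-coding gene, 59 one of non-coding genes only, and 42 none. The promoter share of 96.9% (95% Wilson interval 95.8% to 97.7%) was higher than the 90.9% (90.3% to 91.5%) of gained regions (Fisher's exact test, two-sided, adjusted p = 1.30e-14) and did not differ detectably from the 97.6% (96.5% to 98.3%) of shared regions (adjusted p = 0.668). CpG-island-like sequence, defined as 500 bp with over 50% GC and a CpG observed-to-expected ratio over 0.6, was found at 95.3% of members (94.0% to 96.3%), 87.3% of gained (86.6% to 88.0%) and 95.7% of shared regions (94.3% to 96.8%), with adjusted p-values of 7.72e-19 against gained and 0.954 against shared. The median GC content of members was 69.0%. Leaving out a library enlarged both differences from gained regions, which then include regions called in a single abemaciclib library. The promoter difference of 5.91 percentage points was 8.84 without abemaciclib replicate 1 and 11.9 without replicate 2, and the CpG-island-like difference of 7.94 was 11.7 and 16.2. With 50% reciprocal overlap the class held 120 regions, and its promoter share did not differ detectably from that of gained regions (Fisher's exact test, adjusted p = 0.840). At the median widths given above, a DMSO peak covers too little of an abemaciclib peak to meet this rule. This setting therefore cannot decide whether the promoter difference holds. All p-values were adjusted over 33 tests. Regions are not replicates, so these tests describe the region sets of these libraries.

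E2F and CCAAT matches were more frequent in the class than at gained promoters. Within 200 bp centred on the abemaciclib replicate 1 summit, 266 of 1296 promoter members (20.5%, 18.4% to 22.8%) held an E2F match, against 17.2% of gained (16.3% to 18%; Fisher's exact test, adjusted p = 0.0191) and 24.3% of shared promoters (21.8% to 27%; adjusted p = 0.111). NFY matches were found at 21.8% of members (19.7% to 24.2%), 18% of gained (17.2% to 18.9%; Fisher's exact test, adjusted p = 0.00747) and 29.7% of shared promoters (27% to 32.5%; adjusted p = 1.34e-04). The CHR pattern TTTGAA was found at 3.78% of members, 3.72% of gained and 3.65% of shared promoters, with adjusted p = 0.972 in Fisher's exact test for both comparisons. The same windows at the annotated start of each of 19970 protein-coding genes held E2F matches in 11.5%, NFY in 25.9% and CHR in 7.39%. Both E2F and NFY matches were found at 61 promoter members (4.71%), and none of the 3 patterns at 775 (59.8%). The E2F result depended on the window, the summit and the libraries kept. The excess over gained promoters, 3.36 percentage points, was 1.98 with 100-bp windows (Fisher's exact test, adjusted p = 0.102), 10.8 with 400-bp windows, 6.98 at the abemaciclib replicate 2 summit, and 7.31 and 4.45 without abemaciclib replicates 1 and 2. Without abemaciclib replicate 1 the windows were centred on the replicate 2 summit. The difference from shared promoters, -3.78, was -1.19 at that summit with all libraries kept and -1.23 without abemaciclib replicate 1. It was -10.4 with 400-bp windows, where 43.9% of member and 54.3% of shared promoters held a match (Fisher's exact test, adjusted p = 3.53e-06). For NFY the excess over gained promoters, 3.81 points, was 7.51 with 400-bp windows. With peaks limited to q-values up to 1e-05 and the classes formed again, the NFY difference from shared promoters was -7.06 points (Fisher's exact test, adjusted p = 0.05002).

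Promoters shared by coding genes on opposite strands were more frequent in the class than in gained and less frequent than in shared regions. Such regions were 17.7% of promoter members (15.7% to 19.8%), 13% of gained promoters (12.3% to 13.8%; Fisher's exact test, adjusted p = 1.34e-04) and 24.8% of shared promoters (22.3% to 27.5%; adjusted p = 2.12e-04). Region width moved with this share, with medians of 1247 bp for members, 860 bp for gained and 1430 bp for shared regions. With each peak replaced by 400 bp around its summit, the shares were 16.6% for members, 12.5% for gained (Fisher's exact test, adjusted p = 6.06e-04) and 24.1% for shared promoters (adjusted p = 1.42e-04). The difference from shared promoters was not called with peaks limited to q-values up to 1e-05 and the classes formed again (Fisher's exact test, adjusted p = 0.0636).

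**Figure D4:**
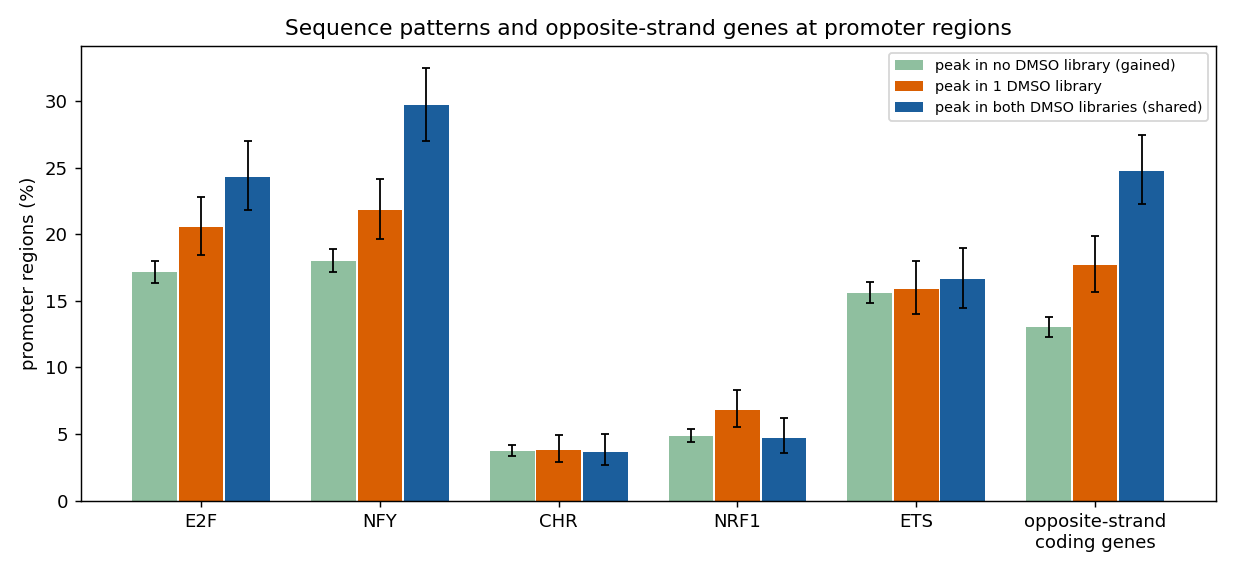
Share of promoter regions (y axis, %) with a match to E2F, NFY, CHR, NRF1 or ETS patterns in 200 bp at the abemaciclib replicate 1 summit, or overlapping promoters of opposite-strand coding genes, for gained, 1-DMSO-library and shared regions. Bars are shares and whiskers 95% Wilson intervals, and the class stands between gained and shared regions for E2F (20.5%), NFY (21.8%) and opposite-strand genes (17.7%).

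Within the middle range of the members' abemaciclib ranks, no difference from gained regions passed the test. Limited to the interquartile range of the members' mean abemaciclib rank, 668 members and 1079 gained regions remained. Ranks were not matched within this range, and gained regions were more numerous at its weaker end. E2F matches were then at 19.4% of member promoters and 19.5% of gained promoters (Fisher's exact test, adjusted p = 1.00), and NFY at 22.3% and 23.7% (adjusted p = 1.00). The promoter share was 97.9% against 97.2% (Fisher's exact test, adjusted p = 0.934), the CpG-island-like share 95.4% against 94.9% (adjusted p = 1.00), and the opposite-strand share 16.7% against 15.3% (adjusted p = 0.934). The shared regions in this range numbered 212, and 33.3% of their promoters held an NFY match (Fisher's exact test, adjusted p = 0.0574), 28.0% an E2F match (adjusted p = 0.142) and 22.2% opposite-strand genes (adjusted p = 0.512). The differences of members from shared promoters in this range, -8.60 percentage points for E2F and -11.0 for NFY, were larger in size than the -3.78 and -7.85 over all ranks, and neither passed the test at these smaller numbers.

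Among the members themselves, the share with an E2F match was higher at the stronger abemaciclib peaks. In 4 groups from the best to the last mean abemaciclib rank, it was 28.1% (23.5% to 33.2%), 21% (16.9% to 25.7%), 17.9% (14.1% to 22.4%) and 15.1% (11.6% to 19.4%), with 324 promoters in each group. The NFY shares were 23.8%, 21.9%, 23.1% and 18.5%. In the same rank ranges, the E2F shares of shared promoters were higher at the weaker abemaciclib peaks, where few shared regions remained. They were 23.1% of 817 (20.4% to 26.1%), 25.5% of 149 (19.2% to 33.1%), 33.3% of 54 (22.2% to 46.6%) and 38.1% of 21 (20.8% to 59.1%). Those of gained promoters were 19.3% of 114, 18.1% of 310, 20.2% of 703 and 17% of 6366. Members thus had the higher E2F value of the 3 classes in the first rank group and lower values than shared promoters in the other groups, an order that was not tested. The intervals of member and shared promoters overlapped in all but the last group, which held only 21 shared promoters. Around the DMSO summit, 24.8% of the 1296 promoter members had an E2F match, compared with 20.5% and 23.3% around the summits of abemaciclib replicates 1 and 2. NFY gave 24.6%, 21.8% and 21.5%. For E2F the abemaciclib replicates differed from each other by more than replicate 2 differed from the DMSO value. The share with an E2F match was 21% where the DMSO peak was in replicate 2 and 18.3% where it was in replicate 1, which did not differ detectably (Fisher's exact test, adjusted p = 0.714).

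The other 10 patterns searched did not separate the class, except NRF1. The NRF1 pattern GCGCNTGCGC, bound by a regulator of nuclear genes for mitochondria, was found at 6.79% of member promoters (5.54% to 8.29%), 4.85% of gained (Fisher's exact test, adjusted p = 0.0214) and 4.71% of shared promoters (adjusted p = 0.111), and at 5.80% of gene starts. In the middle range of abemaciclib ranks it was at 7.03% of member and 6.01% of gained promoters (Fisher's exact test, adjusted p = 0.934). The difference from gained promoters also missed the threshold around the abemaciclib replicate 2 summit (Fisher's exact test, adjusted p = 0.0568) and in 400-bp windows (adjusted p = 0.0516). The SP/KLF pattern GGGCGG was at 63.3% of member promoters and 46.9% of gene starts, and the ETS pattern CCGGAA at 15.9% and 16%. SP/KLF was at 61.2% of gained and 64.0% of shared promoters, and the gene starts were not matched for GC content. The remaining patterns were rare at member promoters. The YY1 pattern AAGATGGC was at 2.62% against 3.01% of gene starts, and the AP-1 pattern TGACTCA at 1.00% against 2.61%. The pattern of GATA factors, AGATAA or TGATAA, was at 2.55% against 7.30%. The CRE pattern TGACGTCA was at 0.772% against 1.87%, the forkhead pattern TGTTTAC at 0.617% against 1.37%, and the palindrome of ZBTB33 at 0.309% against 0.471%. The full palindromic oestrogen response element GGTCANNNTGACC was at none of 1296 member promoters, which allows a share of up to 0.231% (3 counts of the total), and at 0.0351% of gene starts. All patterns were sought on both strands, and the SP/KLF, E2F and NRF1 patterns can overlap in GC-rich sequence.

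Member promoters belonged to 1518 protein-coding genes, 7.6% of the 19970 on these chromosomes. Of all coding genes, 40.1% had a promoter in a gained region and 6.49% in a shared region. Among the 10488 genes with a promoter in any of these 3 kinds of region, 14.5% had one in the class. Of the 1518 genes, 169 also had a promoter in a gained region and 33 in a shared region. Gene lists are given by their counts beside these shares, without a test, and neighbouring genes of a list can share a region.

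Genes of the E2F and DREAM machinery were the list with the highest share. Of 21 genes for E2F, DP, Rb family and DREAM/MuvB proteins, 6 (28.6%) had a promoter in the class, 6 in shared and 10 in gained regions. E2F3, an activator E2F, had 13 fragments in DMSO replicate 2 and 72 and 71 with abemaciclib, and it also had a promoter in a gained region. E2F8, an atypical repressor E2F, had 10, 44 and 39, and TFDP1, the main DP partner, had 17, 48 and 32. TFDP1 thus combined one of the taller DMSO peaks with a below-median abemaciclib peak. MYBL2, the B-MYB subunit that joins MuvB, had 12, 40 and 29. FOXM1, the G2 and mitosis activator, had its peak in DMSO replicate 1 and gave 15, 76 and 57.

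Of 30 cyclins, CDKs and CDK inhibitors, 7 (23.3%) were in the class. CCNE1, cyclin E1, had 7 fragments in DMSO replicate 2 and 78 and 61 with abemaciclib, at chr19:29811095-29812562. CDKN2C, the CDK4/6 inhibitor p18INK4C, had 12, 107 and 96, and it also had a promoter in a shared region. CDKN2A and CDKN2B, neighbours on chromosome 9, had 11, 59 and 40, and 8, 39 and 28. CKS1B, a CDK-binding protein, had 11 in DMSO replicate 1 and 103 and 74 with abemaciclib, and CDC25B, a CDK-activating phosphatase, had 8, 36 and 26. CDC25B also had a promoter in a gained region. The E2F match of CCNE1 lay in the 200 bp around the abemaciclib replicate 1 summit rather than in the 101 bases at its DMSO summit, as the capitals show.
CCNE1 (chr19:29811575-29811774): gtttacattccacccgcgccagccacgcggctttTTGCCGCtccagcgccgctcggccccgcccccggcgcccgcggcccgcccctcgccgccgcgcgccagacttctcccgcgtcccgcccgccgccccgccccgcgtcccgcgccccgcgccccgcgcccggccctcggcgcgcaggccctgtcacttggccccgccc

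CCND1, which encodes cyclin D1, had a pair of member regions upstream of its start, each called in a different DMSO library. The nearer region, chr11:69637967-69639592, had 15 fragments in DMSO replicate 1 and 59 and 51 with abemaciclib, with its abemaciclib replicate 1 summit 1901 bp from the annotated gene start. The farther, chr11:69636231-69637300, had 11 fragments in DMSO replicate 2 and 71 and 46 with abemaciclib, with its summit 4298 bp from the start and outside the promoter window. The local background of their DMSO peaks was 1.90 and 2.10 fragments, against 0.677 at CCNE1. Both DMSO libraries therefore had Rb signal upstream of CCND1, in neighbouring regions. A further promoter region of CCND1 was gained, with no DMSO peak. Over the whole class, the other DMSO library had a peak within 1 kb of the region at only 4 members and within 10 kb at 48.

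DNA replication and repair genes were more often shared than members. Of 57 genes for replication origins and forks, 11 (19.3%) were in the class and 28 (49.1%) in shared regions. GINS4, of the replicative helicase, had 25 fragments in DMSO replicate 2 and 159 and 120 with abemaciclib. ORC6, of the origin recognition complex, had 7, 66 and 55, and TICRR, which loads CDC45 onto origins, had 15, 54 and 41. MCM6, a helicase subunit, had 12, 41 and 37. RPA1, which coats single-stranded DNA, was called in DMSO replicate 1 with 8 fragments and had 64 and 57 with abemaciclib. Of 63 repair and replication checkpoint genes, 15 (23.8%) were in the class and 24 (38.1%) shared. FANCC of the Fanconi anaemia core complex had 18, 143 and 119, and USP1, which deubiquitinates FANCD2 and PCNA, had 15, 97 and 71. UNG, the uracil DNA glycosylase, had 13, 81 and 64. The checkpoint kinase gene CHEK2 had 12 fragments in DMSO replicate 1 and 103 and 84 with abemaciclib, and the mismatch repair gene MSH6 had 7, 86 and 53.

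Mitotic genes and genes for nucleotide supply had small member counts, and their shares were not tested against that of all coding genes. Among listed genes with a member, shared or gained promoter region, members were 17 of 92 (18.5%) for mitosis and 7 of 29 (24.1%) for nucleotide supply. The value on this basis was 14.5% for all coding genes. Of 93 G2 and mitosis genes, 17 (18.3%) were in the class, 27 (29.0%) were shared and 53 (57.0%) were gained. MKI67, the proliferation marker Ki-67, had 8 fragments in DMSO replicate 1 and 59 and 50 with abemaciclib. PRC1, a spindle midzone protein, had 7, 54 and 41, and DLGAP5 had 8, 80 and 65, both in DMSO replicate 1. The condensin genes SMC2 and NCAPH, called in DMSO replicate 2, had 9, 89 and 59, and 10, 57 and 42. Of 32 nucleotide supply genes, 7 (21.9%) were in the class and 5 (15.6%) shared. TK1, thymidine kinase, had 18, 75 and 59, and CTPS1, CTP synthase, had 7, 83 and 52. The purine synthesis genes PPAT and PAICS shared a region with 15, 82 and 93 fragments. CAD, of pyrimidine synthesis, was called in DMSO replicate 1 with 9 and had 45 and 23 with abemaciclib.

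Among lists outside the cell cycle, chromatin and splicing genes had the higher shares, which were not tested against that of all coding genes. Of their genes with a member, shared or gained promoter region, members were 16 of 84 (19.0%) for Polycomb and histone modifiers and 15 of 68 (22.1%) for splicing. All coding genes gave 14.5% on this basis. Of 96 Polycomb and histone modifier genes, 16 (16.7%) were in the class, 8 (8.33%) were shared and 65 (67.7%) gained. EZH1, a methyltransferase of Polycomb complex PRC2, had 9 fragments in DMSO replicate 2 and 113 and 80 with abemaciclib, and NSD3, a histone H3K36 methyltransferase, had 18, 102 and 81. Of 71 spliceosome and mRNA processing genes, 15 (21.1%) were in the class and 16 (22.5%) shared. PTBP1, a splicing repressor, had 13, 105 and 75. Of 16 DNA methylation genes 3 were members, among them MBD4 with 18, 85 and 74. Of 73 replication-dependent histone and histone supply genes, 6 (8.22%) were in the class, with H3C1 and H4C1 in a single region of 11 fragments in DMSO replicate 1 and 68 and 49 with abemaciclib. Of 27 AP-1 and MYC network genes, 3 (11.1%) were members.

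Oestrogen response, ribosomal protein and oxidative phosphorylation genes were mostly in gained regions, as were those of several other lists. The gained share was 56.25% for nucleotide supply and 57.0% for G2 and mitosis genes. It was 67.7% for Polycomb and histone modifiers and 66.7% for the AP-1 and MYC network, against 40.1% of all coding genes. Of 74 oestrogen response and luminal genes, 7 (9.46%) were members, 8 (10.8%) shared and 41 (55.4%) gained. These members were CCND1, TFAP2C, NCOA2, ERBB2, EGR3, OLFM1 and FKBP4. TFAP2C, a luminal AP-2 transcription factor, had 9 fragments in DMSO replicate 2 and 40 and 17 with abemaciclib, the latter well below the class median. ERBB2, the HER2 receptor, had 10, 39 and 34, and NCOA2, a nuclear receptor coactivator, had 11, 58 and 35. Of 78 cytosolic ribosomal protein genes, 51 (65.4%) were gained, 4 (5.13%) shared and 1 (1.28%) a member. That member was RPL15, with 8 fragments in DMSO replicate 2 and 23 and 21 with abemaciclib. Of 76 nuclear oxidative phosphorylation genes, 5 (6.58%) were members and 47 (61.8%) gained. Among listed genes with a promoter in any of the 3 kinds of region, members were 1.79% for ribosomal proteins, 9.09% for oxidative phosphorylation and 13.7% for oestrogen response, beside 14.5% for all coding genes, 24.6% for repair and 28.6% for E2F and DREAM genes.

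**Figure D5:**
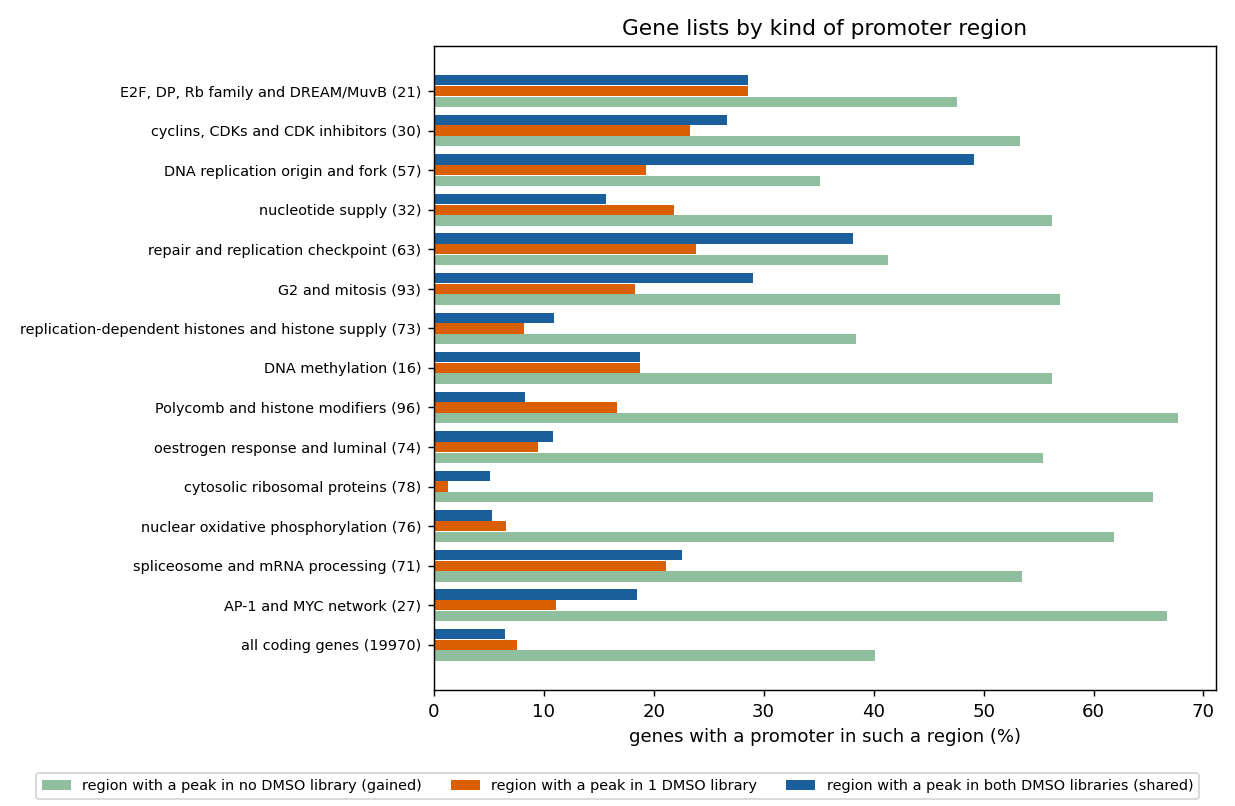
Share of the genes of each list (x axis, %) with a promoter in gained, 1-DMSO-library or shared regions, with the number of genes in parentheses and all 19970 coding genes in the last row. The class holds 28.6% of E2F and DREAM genes, 19.3% of replication genes, 1.28% of ribosomal protein genes and 7.6% of all coding genes.

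Only 42 members lay outside promoters. By the position of the abemaciclib replicate 1 summit, 17 of these were intergenic and 16 in introns of coding genes. The strongest lay in introns, 1422 bp from the start of CLEC11A, 3253 bp from that of SRF and 67884 bp from that of LRP5. The CLEC11A region had 18 fragments in DMSO replicate 2 and 90 and 88 with abemaciclib. The region near SRF, which encodes serum response factor, had 7, 104 and 70, and that in LRP5, a WNT co-receptor, had 23, 94 and 79. E2F matches were found at 7 of the 42 (16.7%) and at 146 of 779 gained regions outside promoters (18.7%). The oestrogen response element was at none of the 42, which on the same basis allows a share of up to 7.14%.

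Rb peaks were called against IgG, so an overlap with called IgG2a peaks says little about weaker IgG2a signal. Such a peak overlapped 1 of 1338 members, 4 of 8607 gained and 0 of 1067 shared regions. On chromosome X lay 3.14% of members and 3.33% of gained regions but 8 of 1067 shared regions (0.75%). Chromosome 19 held 7.03% of members, 7.68% of gained and 9.37% of shared regions.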

How the data were processed

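Peak lists of 5 libraries were analysed. The authors used BBDuk for trimming and Bowtie2 2.3.4.1 for alignment to GRCh38, kept duplicates and called peaks per library with MACS2 2.2.7.1 at q 0.05 against IgG. The deposited lists give a fold enrichment (a ratio of pileup plus 1 to local background plus 1), the −log10 of a Poisson p and of its q-value, and a score derived from q, all as the authors' caller wrote them. They hold no counts over common regions, so the study's count model was not run.

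Peaks sharing at least 1 bp were merged. Whole-number heights were solved from fold and p at a tolerance of 0.02 in −log10 p, for 100% of peaks on these chromosomes. The method was tested on simulated data. Annotation was GENCODE 44. Tests were Fisher's exact, two-sided, with Benjamini-Hochberg adjustment over 33 tests (scipy 1.17.1, statsmodels 0.14.6). Intervals are 95% Wilson and cover counting error only. Samples were grouped by title.

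Members and gene lists were chosen with earlier results of these data known. CCNE1 and CCND1 were always named. The other names were the 10 promoter members with the best mean abemaciclib rank, per DMSO library the 8 with the best DMSO rank and the 3 with the lowest −log10 q, the 5 strongest outside promoters, and up to 8 per gene list, of which some are printed. Of 15 lists, 14 are shown and 1 is not reported here, and 1 list symbol was not matched. Alternatives changed the q-value, overlap, peak edges, window, summit, rank range and IgG2a overlap, left out each abemaciclib library, or equalised peak numbers.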

Additional observations from a re-analysis of the deposited data

How the results depend on the processing

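Differences below are percentage points, members minus the other class. The number of members was 700 when peaks were limited to q-values up to 1e-05, 327 with the 1438 strongest peaks per library and 120 with 50% reciprocal overlap. The classes were formed again each time, so their members need not be those of the main class. A DMSO peak of the median width cannot reach 50% reciprocal overlap with an abemaciclib peak of the median width, which limits that setting. At q-values up to 1e-05, 33 of 248 and 322 of 1090 members kept their DMSO peak in replicates 1 and 2. Shared regions that lost 1 DMSO peak could enter, and shared regions numbered 524 there against 1067 in the main setting. Against gained regions, the promoter difference (5.91) was 3.24 with reciprocal overlap. In the interquartile range of abemaciclib rank it was 0.68, with CpG-island-like sequence at 0.46, E2F at -0.12, NFY at -1.41, CHR at -0.83 and opposite-strand genes at 1.41. E2F was 1.98 with 100-bp windows, and CHR (0.0634) was -0.0265 and -0.0499 with 100-bp and 400-bp windows, -1.70 at q of at most 1e-05, and -0.143 and -0.0652 without abemaciclib replicate 1 and 2. Against shared regions, the promoter difference (-0.70) was 6.64 with reciprocal overlap and 0.26 in the rank range, where CpG-island-like sequence was 0.55, NFY -11.0 and opposite-strand genes -5.56. E2F (-3.78) was 1.12 with 100-bp and -10.4 with 400-bp windows, the latter past the threshold (Fisher's exact test, adjusted p = 3.53e-06). At q of at most 1e-05, NFY was -7.06, opposite-strand genes -5.90 and CHR -2.62, none past the threshold, and CHR was -0.16 in CpG-island-like windows alone. Among tests of the other 10 patterns by Fisher's exact test, 1 passed (NRF1 against gained), compared with 0 with 100-bp windows, in the rank range, at q of at most 0.01 or 1e-05, or at the abemaciclib replicate 2 summit, and 2 without abemaciclib replicate 1 or 2. Apart from the width limit on reciprocal overlap, the cause of these changes was not tested. Leaving out an abemaciclib replicate, or moving the window, also enlarged several differences from gained regions that stayed past the threshold, as given with those results. In all, 102 of 142 recomputed values kept their direction and side of the threshold, or for counts stayed within 1.5 times.

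The rank range for promoter, CpG-island-like and opposite-strand shares, and 400-bp peaks for opposite-strand shares, were added after seeing the data. Without a DMSO replicate the class cannot be formed. No paired analysis was possible because these comparisons are between sets of regions and involve no fit across samples. A peak list does not show signal that missed the threshold, so regions with the same weak DMSO signal can fall on either side of the class border. Median DMSO heights of 9 and 10 fragments carry large counting error, and without counts over common regions no test between treatments was made.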
